A study of Mus musculus with 6 samples.

Results

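Cxcl9, Cxcl10, Cxcl16, Cxcr3 and Cxcr6 are the genes of a pair of chemokine axes that guide T cells, and they were followed in single-cell RNA sequencing (scRNA-seq) libraries from tumor-bearing mice. These 5 of the 32285 genes were taken by symbol, each matching 1 gene. In the 51633 cells kept, of 57078 barcodes, Cxcl9 had 157465 unique molecular identifiers (UMIs, one per captured transcript molecule), Cxcl10 had 112877, Cxcl16 had 64105, Cxcr3 had 3632 and Cxcr6 had 32782. CXCL9 and CXCL10 are secreted chemokines that interferons induce in myeloid and stromal cells, and both bind CXCR3, a receptor of activated T cells, regulatory T cells (Tregs) and NK cells. CXCL16 is made as a transmembrane protein that can be cleaved into a soluble chemokine, and it binds CXCR6, a receptor of effector and tissue-resident T cells. In tumors these ligands are known for drawing T cells in and holding them beside macrophages and dendritic cells.

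Cxcl9 and Cxcl10 lie close together on mouse chromosome 5, and the sequences just before these 2 interferon-induced genes are shown because the comparisons below turn on them. In the GRCm38 gene annotation, all 5 members are protein-coding genes. Cxcl9 is at chr5:92321347-92328079 and Cxcl10 at chr5:92346638-92348889, both on the minus strand. Cxcl16 is at chr11:70453983-70459984 on the minus strand. Cxcr3 is at chrX:101731535-101734269 on the minus strand, and Cxcr6 is at chr9:123806475-123811760 on the plus strand. The promoter windows below are RefSeq sequence on GRCm38.p6, 300 bases on the strand of the gene, from 250 bases before the start of transcription to 50 after it. The Cxcl9 window is chr5:92328030-92328329 and the Cxcl10 window is chr5:92348840-92349139. Capitals mark a match to an interferon-stimulated response element (ISRE).
Cxcl9: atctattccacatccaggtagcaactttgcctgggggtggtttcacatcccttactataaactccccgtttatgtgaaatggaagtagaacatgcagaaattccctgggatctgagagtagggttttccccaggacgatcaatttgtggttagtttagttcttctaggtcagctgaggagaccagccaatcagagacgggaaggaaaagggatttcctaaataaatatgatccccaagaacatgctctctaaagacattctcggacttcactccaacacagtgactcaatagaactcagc
Cxcl10: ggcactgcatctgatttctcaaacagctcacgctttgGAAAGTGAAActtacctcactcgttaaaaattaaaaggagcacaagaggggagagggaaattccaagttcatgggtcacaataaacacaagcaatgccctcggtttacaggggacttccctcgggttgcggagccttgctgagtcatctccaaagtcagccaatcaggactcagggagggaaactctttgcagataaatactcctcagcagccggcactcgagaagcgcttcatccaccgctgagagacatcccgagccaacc
The ISRE letters, GAAA, any 2 bases and GAAA again, were searched on both strands of 32817 promoter windows of this length along with 2 other motifs. They were in 3.43% of all windows, the gamma-interferon activation site letters TTCNNNGAA in 8.29% and the T-box letters GGTGTGA in 3.98%. The Cxcl10 window held 1 ISRE match, GAAAGTGAAA, beginning 213 bases upstream of the start. No match to any of the 3 motifs was found in the windows of Cxcl9, Cxcr3 or Cxcr6. A match is a description of the letters in this window. Only the letters of these 3 motifs were searched. A window without a match says nothing of other elements within it or of the rest of the gene.

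Each library came from 1 mouse, and the 6 libraries were a control, 3 single treatments (2DG, 2FF and anti-PD-L1) and 2 combinations, in which anti-PD-L1 was given together with 2DG or together with 2FF. The latter are called the 2DG combination and the 2FF combination. 2DG is 2-Deoxy-D-glucose, given here as an inhibitor of branched N-glycans, 2FF is a fluorinated fucose analog that inhibits fucosylation, and anti-PD-L1 blocks an immune checkpoint ligand. Per the methods of the study, female C57BL/6 mice carried orthotopic tumors in the ovarian bursa from KPCA cells, a homologous recombination-proficient ovarian cancer line with mutant and deleted Trp53 and overexpressed Ccne1 and Akt2 among its alleles, so that controls and treated mice shared these tumor alleles. Controls received solvents and rat IgG, 2DG was given once tumors were palpable, and with 2FF the tumor cells were also treated before injection. The study asked whether glycan inhibitors change the response to anti-PD-L1. The labels give another tissue, lymph node, and the design text of the series mentions young and aged mice, without an age for a sample. The methods of the study give a single age range, in weeks, for the mice injected, and describe no aged mice. The high endothelial and stromal genes of lymph node, Madcam1 and Ccl21a, had 0 to 2 and 0 to 1 UMIs per library. Few stromal cells were captured, with at most 3 endothelial cells and 12 fibroblasts in a library by their markers. These low counts therefore cannot tell lymph node from tumor. Cr2, a gene of follicular dendritic cells and also of B cells, had 77 to 311 UMIs per library, where B cells made up 0.793% to 4.76% of the cells kept.

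Libraries held 61859753 to 73885214 UMIs, and 7703 to 9222 cells per library were kept, with a median of 6196 to 7732 UMIs per cell. Pairs of libraries shared 16 to 34 barcodes. Cells were assigned to classes by 6 marker genes per class, of which at least 2 had to be detected, and 5.54% to 10.5% of kept cells stayed unassigned. Of 36 markers not used for the assignment, 28 were highest in their own class. Phagocytes whose highest marker count was tied between classes were kept apart as mixed mononuclear phagocytes. The control library stood apart in its makeup, with 32.9% neutrophils against 3.12% to 5.48% in the other 5 libraries, and with 5.26% T cells against 25.7% to 38.0%. Cells with epithelial markers numbered 65 in all, 2 to 26 per library, too few to compare tumor cells. Levels are UMIs scaled to 1000000 UMIs of the class in a library (CPM). They are never compared between genes.

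Cxcl9 was highest in macrophages. Its level there was 503 CPM in the control, 1117 with 2DG, 1170 with 2FF, 1331 with anti-PD-L1, 1433 with the 2DG combination and 1093 with the 2FF combination. The control was lowest, and the other 5 libraries lay between 1093 and 1433 CPM. A Cxcl9 UMI was found in 35.8% of control macrophages and in 56.7% to 66.3% of macrophages elsewhere. CD8+ T cells, which are not a source of CXCL9, had a Cxcl9 UMI in 3.85% to 8.22% of cells, at a median of 6014 to 8132 UMIs per cell against 9305 to 13159 in macrophages. With every cell thinned to 1000 UMIs, the shares were 18.0% to 44.1% of macrophages and 1.01% to 2.12% of CD8+ T cells.

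Type 1 dendritic cells, which cross-present antigen to CD8+ T cells, came next in the order of Cxcl9 levels, with 429 CPM in the control and 691 to 1167 elsewhere. Macrophages exceeded them by 0.49 ± 0.24 (SD, n = 6 libraries) on the log2(CPM + 5) scale, in 6 of 6 libraries (exact two-sided sign-flip permutation test, p = 0.03125, the smallest possible with 6 libraries, 0.169 after Benjamini-Hochberg adjustment over 65 pairs of neighbouring classes). Over all 5 members, 12 of the 65 pairs had an unadjusted exact p under 0.05 and 0 passed after adjustment. With so few libraries no pair could pass unless most of the 65 reached the smallest possible p, so nothing is read from this count. The pairs were also neighbours in an order made from the same levels. Type 1 dendritic cells and mixed phagocytes differed by 0.06 ± 0.39 in Cxcl9 level, less than the spread between libraries. Type 2 dendritic cells, which prime CD4+ T cells, had 378 to 808 CPM of Cxcl9, and classical monocytes had 96.5 in the control and 311 to 688 elsewhere. Neutrophils had 14.0 CPM in the control and 83.1 to 272 elsewhere, more than non-classical monocytes in 6 of 6 libraries (difference 0.93 ± 0.70 on the log2 scale). With anti-PD-L1 alone the 2 classes were nearly equal, at 147.4 CPM in neutrophils and 147.1 in non-classical monocytes. There the mean of the CPM of each cell had the other order, 101.6 against 120.1. In the control, non-classical monocytes had 8.88 CPM, from 8 UMIs.

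Cxcl10 had another leading class, the classical monocyte. Its level there was 160 CPM in the control, 466 with 2DG, 788 with 2FF, 533 with anti-PD-L1, 932 with the 2DG combination and 907 with the 2FF combination. The control was lowest, 2DG alone and anti-PD-L1 alone were between, and 2FF and both combinations were highest. Monocytes with a Cxcl10 UMI made up 13.5% of the class in the control and 31.2% to 52.2% elsewhere, against 2.31% to 11.0% of CD8+ T cells. Monocytes exceeded mixed phagocytes in Cxcl10 level by 0.71 ± 0.17 on the log2 scale in 6 of 6 libraries (exact sign-flip permutation p = 0.03125, 0.169 adjusted). Below them came mixed phagocytes, macrophages, neutrophils and type 2 dendritic cells. Neighbours among these did not differ beyond the spread, with differences of 0.03 ± 0.26, 0.11 ± 0.55 and 0.02 ± 0.89. Type 2 dendritic cells exceeded the next class, non-classical monocytes, by 1.38 ± 0.42 in 6 of 6 libraries (exact sign-flip permutation p = 0.03125, 0.169 adjusted). Macrophage levels of Cxcl10 ran from 99.7 CPM in the control to 498 with the 2DG combination.

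Neutrophils, short-lived phagocytes, had 81.3 CPM of Cxcl10 in the control, 340 with 2DG, 674 with 2FF, 156 with anti-PD-L1, 444 with the 2DG combination and 552 with the 2FF combination. Control and anti-PD-L1 alone were the 2 lowest, and the 4 libraries with a glycan inhibitor were higher. After thinning to 1000 UMIs, 3.56% of control neutrophils and 9.49% of anti-PD-L1 neutrophils had a Cxcl10 UMI, against 13.5% to 22.3% in the libraries with an inhibitor. Dendritic cells of type 1 stayed low, at 21.2 to 94.6 CPM of Cxcl10, where type 2 had 128 to 426.

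Cxcl16 was highest in mature dendritic cells, the Ccr7-expressing state that carries antigen to T cells. Its level there was 502 CPM in the control, 528 with 2DG, 642 with 2FF, 603 with anti-PD-L1, 701 with the 2DG combination and 626 with the 2FF combination. All 6 libraries were close together, the control included. Between 79.5% and 94.3% of mature dendritic cells had a Cxcl16 UMI, against 2.31% to 6.12% of CD8+ T cells. Macrophages followed with 268 CPM in the control and 456 to 544 elsewhere, lower than mature dendritic cells by 0.43 ± 0.24 on the log2 scale in 6 of 6 libraries (exact sign-flip permutation p = 0.03125, 0.169 adjusted). Macrophages in turn exceeded mixed phagocytes by 0.67 ± 0.18. Type 2 and type 1 dendritic cells had 180 to 311 and 186 to 360 CPM of Cxcl16, and classical monocytes had 42.9 in the control and 133 to 184 elsewhere. Monocytes exceeded neutrophils by 1.87 ± 0.33 in Cxcl16 level in 6 of 6 libraries.

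**Figure D1:**
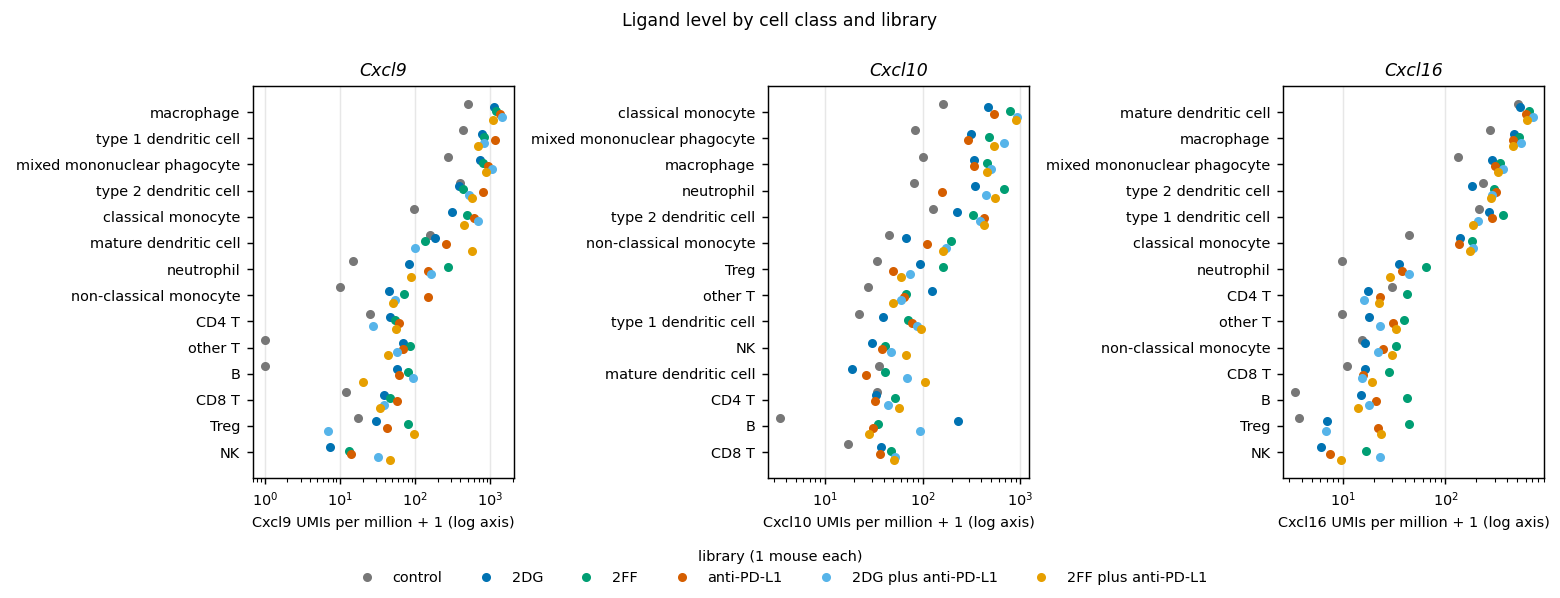
Levels of Cxcl9, Cxcl10 and Cxcl16 (CPM + 1, log axis) in each cell class with at least 50 cells in a library, 1 point per library and classes in order of level. Macrophages lead for Cxcl9, classical monocytes for Cxcl10 and mature dendritic cells for Cxcl16, and the control is the lowest point in macrophages and classical monocytes in all 3 panels.

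The share of each ligand's UMIs that a class supplied depended on its size as well as its level. Macrophages supplied 32.6% to 50.8% of the Cxcl9 UMIs of a library (median 43.6%), and classical monocytes supplied 13.3% to 29.8%. For Cxcl10 the order was turned around, with 35.2% to 60.5% from classical monocytes (median 50.8%) and 11.6% to 27.1% from macrophages. Neutrophils supplied 16.2% of Cxcl10 UMIs in the control, where they were most numerous, and 1.13% to 4.69% elsewhere. Macrophages supplied 34.9% to 48.8% of Cxcl16, whereas mature dendritic cells, with the highest level but only 63 to 139 cells per library, supplied 2.91% to 8.52%.

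**Figure D2:**
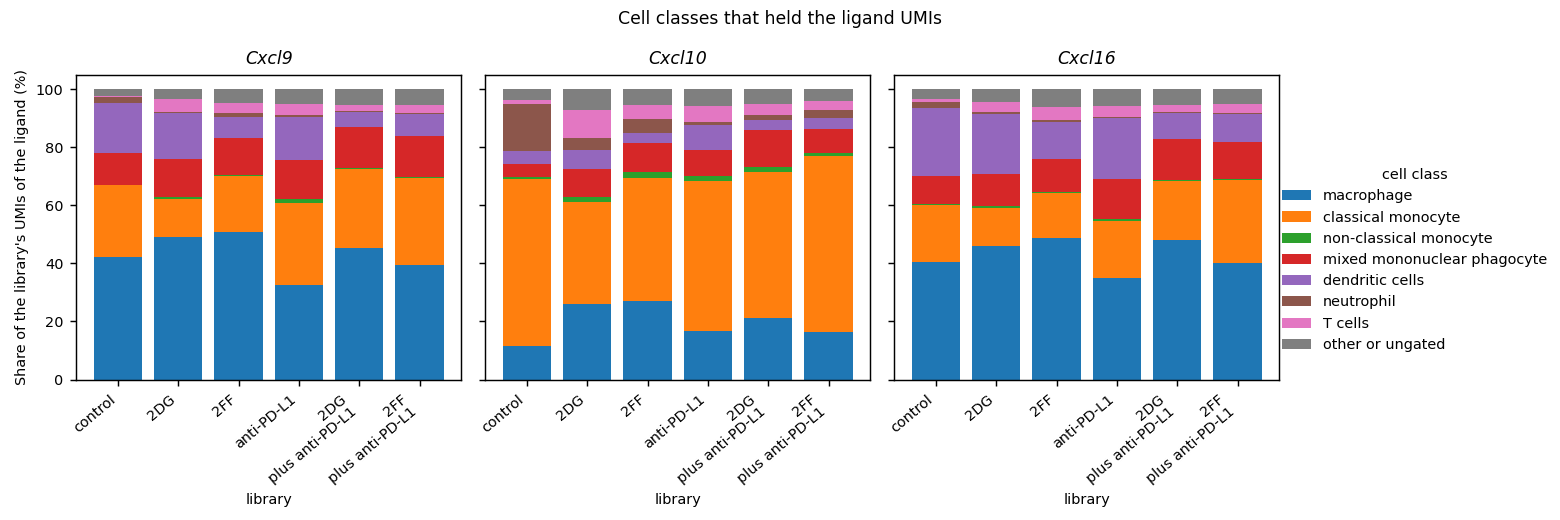
Share of the UMIs of Cxcl9, Cxcl10 and Cxcl16 in each library (percent, stacked bars from 0) that came from each cell class. Macrophages hold the biggest share of Cxcl9 and Cxcl16 and classical monocytes that of Cxcl10, and the control has a visible neutrophil share of Cxcl10.

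The ligands also differed in how unevenly they were spread over cells of a class. In macrophages, the 5% of cells richest in Cxcl9 held 64.2% of its UMIs in the control and 33.9% to 43.7% elsewhere. In classical monocytes the same top 5% held 95.6% of Cxcl9 UMIs in the control and 60.6% to 70.2% elsewhere, and 89.0% of Cxcl10 UMIs in the control and 41.6% to 61.5% elsewhere. Cxcl16 was spread more evenly, with 14.8% to 21.5% of its macrophage UMIs in the top 5%. Cxcl9 was detected more often in macrophages with Cxcl10 than in those without, in 6 of 6 libraries. Among macrophages with a Cxcl10 UMI, 47.1% in the control and 69.2% to 76.7% elsewhere also had Cxcl9, against 32.7% in the control and 49.5% to 60.9% elsewhere among macrophages without Cxcl10. Cells with more UMIs detect both genes more often, and the part of depth in this was not tested.

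Macrophages with a UMI of Gpnmb, a lipid-associated macrophage gene, were compared with the other macrophages of the same library. In the control, Gpnmb+ macrophages (59 cells) had 43.6 CPM of Cxcl9 against 534 in the rest. With a minimum of 50 cells per state only 1 library, the control, entered and no test was possible. Gpnmb+ macrophages numbered 13 with 2DG and 22 with 2FF. Over 6 libraries, with at least 10 cells per state, a minimum chosen after the data were seen, the Cxcl9 level of Gpnmb+ macrophages differed by -2.22 ± 1.18 on the log2 scale and was higher in 0 of 6 libraries (exact sign-flip permutation p = 0.03125). The corresponding differences were -1.05 for Cxcl10, higher in 2 of 6 libraries (exact permutation p = 0.219), and -0.13 for Cxcl16, higher in 1 of 6 (exact permutation p = 0.156). These p-values were not adjusted over the 3 ligands.

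Cxcr3, the receptor of CXCL9 and CXCL10, was highest in Tregs among lymphocyte classes with at least 50 cells per library. Its level in Tregs was 43.0 CPM in the control, 60.1 with 2DG, 83.3 with 2FF, 57.3 with anti-PD-L1, 66.5 with the 2DG combination and 72.5 with the 2FF combination. The control was lowest and 2FF highest, and in every library Tregs lay above the CD4+ and CD8+ T cells. A Cxcr3 UMI was found in 23.0% to 41.1% of Tregs, against 0.0993% to 1.28% of macrophages, which should lack it. The remaining T cells, with none or a mixture of Cd4, Cd8a, Cd8b1 and Foxp3 UMIs and not assigned as gamma-delta T cells, had 32.8 to 47.3 CPM. They were below Tregs by 0.59 ± 0.35 on the log2 scale and above CD4+ T cells by 0.56 ± 0.29, each in 6 of 6 libraries (exact sign-flip permutation p = 0.03125, 0.169 adjusted). CD4+ T cells had 19.0 to 36.0 CPM of Cxcr3 and CD8+ T cells had 16.2 to 27.7, and these 2 classes did not differ beyond the spread (0.17 ± 0.45, higher in CD4+ T cells in 4 of 6 libraries, exact permutation p = 0.5). NK cells had 6.60 to 11.7 CPM in the 5 libraries with at least 50 of them, and B cells had 0 to 25.6.

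Outside lymphocytes, type 1 and plasmacytoid dendritic cells had Cxcr3 UMIs. The level in type 1 dendritic cells was 35.0 CPM in the control, 18.7 with 2DG, 14.7 with 2FF, 10.7 with anti-PD-L1, 9.84 with the 2DG combination and 3.46 with the 2FF combination, from 71, 48, 21, 19, 7 and 3 UMIs. Control was highest here, the reverse of its place in Tregs. Plasmacytoid dendritic cells, producers of type I interferon with only 6 to 38 cells per library, had 0 Cxcr3 UMIs in the control and 2 to 16 elsewhere, at 10.4 to 44.7 CPM, above type 1 dendritic cells in 4 of these 5 libraries. In the control, type 1 dendritic cells gave 36.6% of all Cxcr3 UMIs of the library, which held few T cells. CD8+ T cells gave 12.4% to 45.0% of Cxcr3 UMIs over the 6 libraries.

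Cxcr6, the receptor of CXCL16, was high in CD8+ and CD4+ T cells alike. Its level in CD8+ T cells was 311 CPM in the control, 319 with 2DG, 384 with 2FF, 328 with anti-PD-L1, 411 with the 2DG combination and 345 with the 2FF combination. In CD4+ T cells other than Tregs it was 323, 272, 339, 295, 377 and 325 CPM in the same order. Between 74.6% and 78.5% of CD8+ and 65.0% and 70.4% of CD4+ T cells had a Cxcr6 UMI, against 1.25% to 3.38% of macrophages. CD8+ T cells exceeded CD4+ T cells by 0.12 ± 0.10 on the log2 scale in 5 of 6 libraries (exact sign-flip permutation p = 0.0625, 0.226 adjusted).

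Tregs were low in Cxcr6, with 24.9 CPM in the control and 32.2 to 47.2 elsewhere, and 11.5% to 18.2% of them had a UMI. The remaining T cells exceeded Tregs by 2.18 ± 0.37 in Cxcr6 level in 6 of 6 libraries (exact sign-flip permutation p = 0.03125, 0.169 adjusted), so Tregs came before the CD8+, CD4+ and remaining T cells for Cxcr3 and behind them for Cxcr6. NK cells had 9.11 to 18.8 CPM of Cxcr6, below Tregs in 5 of 5 libraries. CD8+ T cells gave 32.4% to 73.5% of the Cxcr6 UMIs of a library and CD4+ T cells 13.6% to 39.5%.

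**Figure D3:**
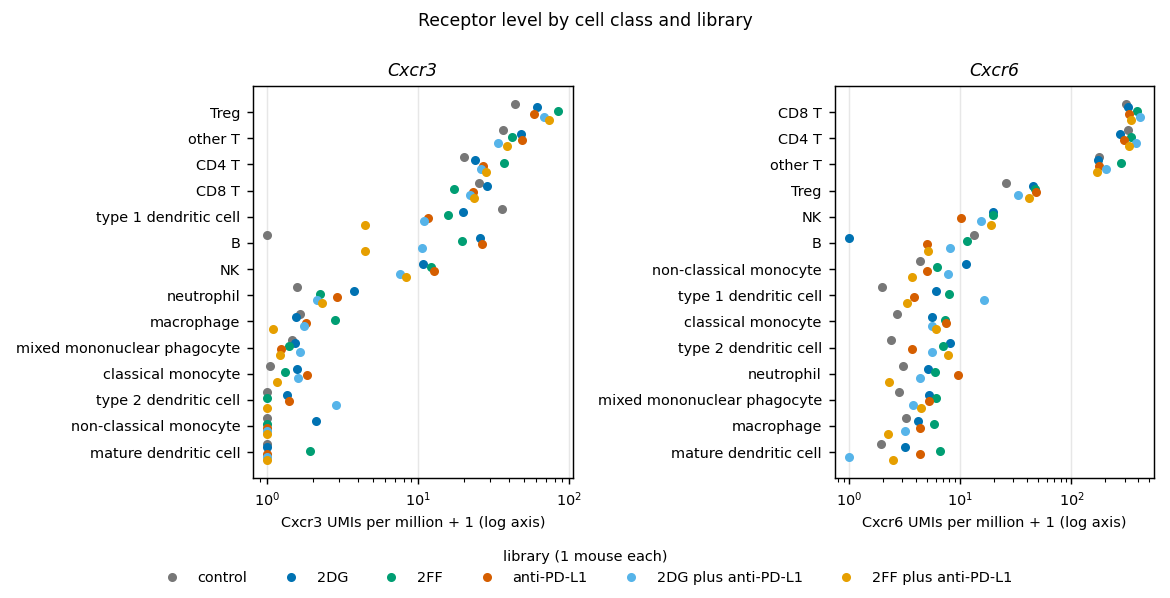
Levels of Cxcr3 and Cxcr6 (CPM + 1, log axis) in each cell class with at least 50 cells in a library, 1 point per library and classes in order of level. Cxcr3 is highest in Tregs among lymphocytes, and Cxcr6 is high in CD8+ and CD4+ T cells and low in Tregs.

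The receptors also parted within CD8+ T cells. Cells were split by a UMI of Havcr2, which encodes TIM-3 and marks terminally exhausted cells, by a UMI of Tcf7 without Havcr2, which marks stem-like or memory cells, and by neither. Over the 5 libraries with at least 50 cells per state, Cxcr3 was 13.3 ± 1.73 CPM (SD, n = 5 libraries) in Havcr2+ cells, 30.3 ± 5.17 in cells with neither and 52.0 ± 12.9 in Tcf7+ cells. Cxcr6 ran the other way, with 394 ± 50.4, 345 ± 20.6 and 145 ± 23.7 CPM. Havcr2+ minus Tcf7+ cells gave -1.62 ± 0.27 for Cxcr3 and 1.41 ± 0.28 for Cxcr6 on the log2 scale, the same direction in 5 of 5 libraries each (exact sign-flip permutation p = 0.0625, the smallest possible with 5 libraries, 0.0625 after adjustment over 6 pairs). With cells thinned to 1000 UMIs, the share of cells with Cxcr3 differed by -3.93 percentage points and that with Cxcr6 by 19.7, again in 5 of 5 libraries.

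The control had too few CD8+ T cells for this minimum, with 69 Havcr2+, 20 Tcf7+ and 41 other cells, in which Cxcr3 was 11.1, 73.8 and 25.6 CPM and Cxcr6 was 365, 135 and 282. With a minimum of 10 cells the control entered, and the difference between Havcr2+ and Tcf7+ cells was -1.73 for Cxcr3 and 1.41 for Cxcr6, in 6 of 6 libraries (exact permutation p = 0.03125). Among all CD8+ T cells with a Cxcr6 UMI, 9.30% to 15.5% had Cxcr3, against 10.2% to 20.7% of those without, and the second share was higher in 6 of 6 libraries, by as little as 15.504% against 15.452% in the 2FF combination.

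**Figure D4:**
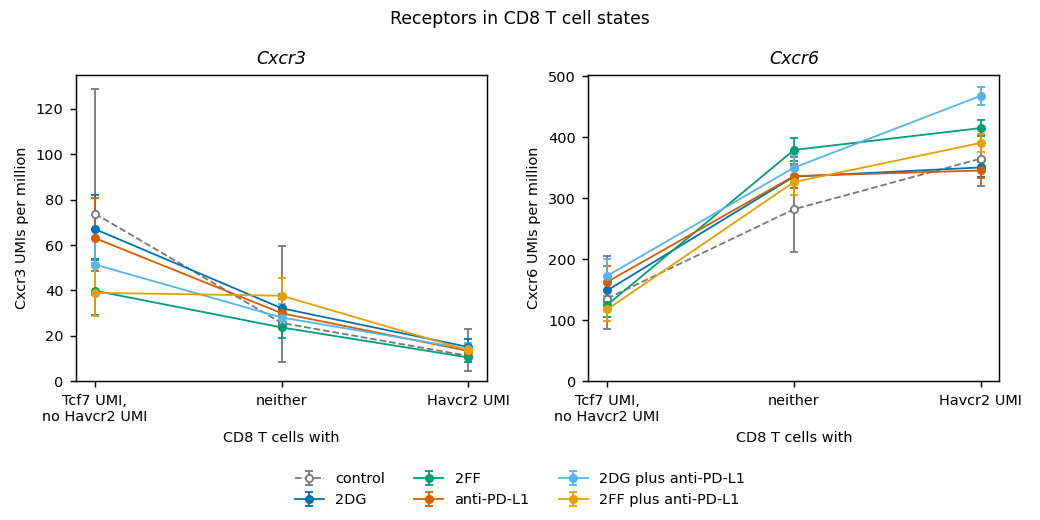
Levels of Cxcr3 and Cxcr6 (CPM) in CD8+ T cells with a Havcr2 UMI, with neither gene, and with a Tcf7 UMI but no Havcr2 UMI, with lines joining the states of a library and bars for exact 95% Poisson intervals, the control dashed. Cxcr3 is higher in Tcf7+ than in Havcr2+ cells and Cxcr6 lower, in each library drawn.

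Treatments were compared as log2 ratios of CPM + 5 within a class. With 1 mouse per treatment a ratio between 2 libraries has no replicate check and was not tested, and the 95% intervals cover counting error only. A gene was counted as higher or lower where the ratio passed 1.5-fold and the 2 libraries held at least 50 UMIs together. The control library served all 3 comparisons with control and the anti-PD-L1 library served both comparisons of a combination with anti-PD-L1, so ratios that share a library are not independent. The control differed in its neutrophil and T cell shares as given above, and the part of this in the ratios over control was not tested.

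As a layout of 3 inhibitor levels (none, 2DG and 2FF) with and without anti-PD-L1, the 6 libraries allow an additive fit with 2 residual degrees of freedom, which takes anti-PD-L1 to act alike beside each inhibitor. It was added after the data were seen and used the edgeR quasi-likelihood test on the UMIs of each class, with Benjamini-Hochberg adjustment over all genes. Of 36 tests of the 3 ligands (4 classes, 3 terms), 0 passed an adjusted p of 0.05, against 0.00452% of all gene tests, and 13 had an unadjusted p under 0.05. Among all genes of a class and term, the share with an unadjusted p under 0.05 ran from 159 of 10059 (neutrophils, anti-PD-L1) to 1308 of 12897 (macrophages, 2FF). Of 18 tests of the receptors in 3 T cell classes, 0 passed, against 0.0349% of gene tests, and 1 had an unadjusted p under 0.05. In these classes the share of all genes with an unadjusted p under 0.05 ran from 468 of 13256 (CD8+ T cells, 2DG) to 720 of 11261 (CD4+ T cells, 2FF). The lowest adjusted p of a ligand was 0.397, for Cxcl10 in macrophages with 2FF (log2 fold 1.40), and that of a receptor was 0.792, for Cxcr3 in CD4+ T cells with 2FF (0.49). Fitted values lay above 0 in 35 of the 36 ligand tests, the exception being Cxcl9 in mature dendritic cells with 2DG (-0.31). These tests share their libraries, and the share of all genes above 0 was not counted, so nothing is read from this number. The assumption of alike effects was not met by Cxcl9 in these libraries. In neutrophils, from few cells, its anti-PD-L1 ratio was 3.002 over control, 0.93 added to 2DG and -1.58 added to 2FF (fitted 0.88). In classical monocytes, as given below, this ratio was also highest over control and slightly negative when added to 2FF. The fit counts such differences as error, so the 0 of 36 cannot tell absent effects from unlike ones.

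In macrophages all 3 ligands were higher than in the control with each single treatment. Among all genes tested there, 10.2% passed the fold in either direction with 2DG, 14.4% with 2FF and 10.2% with anti-PD-L1. For Cxcl9 the log2 ratios were 1.14 (1.10 to 1.19) with 2DG, 1.21 (1.16 to 1.26) with 2FF and 1.40 (1.35 to 1.45) with anti-PD-L1. For Cxcl10 they were 1.70, 2.15 and 1.69, and for Cxcl16 0.79, 0.94 and 0.75.

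Between treated libraries, 0 of 3 ligands passed the fold in macrophages in any comparison. The backgrounds were 4.89% of genes for the 2DG combination over 2DG, 2.42% for the 2FF combination over 2FF, and 6.65% and 3.81% for the 2DG and the 2FF combination over anti-PD-L1. Over anti-PD-L1, the Cxcl9 ratio was 0.11 (0.07 to 0.14) with added 2DG and -0.28 (-0.32 to -0.24) with added 2FF, and the Cxcl10 ratio was 0.58 (0.51 to 0.64) and 0.46 (0.39 to 0.53). Cxcl16 gave 0.25 and 0.00. Thus the Cxcl10 ratio of the 2DG combination lay just inside the 1.5-fold limit.

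Classical monocytes showed larger ratios over control than macrophages for Cxcl9 and Cxcl16. All 3 ligands were higher in each single treatment, where 17.2% of genes with 2DG, 16.7% with 2FF and 16.6% with anti-PD-L1 passed the fold. Cxcl9 gave 1.64, 2.28 and 2.57, Cxcl10 gave 1.51, 2.26 and 1.70, and Cxcl16 gave 1.58, 1.95 and 1.53. The median of all genes in monocytes was itself shifted by 0.15, 0.10 and 0.12, and relative to that shift these 9 ratios were 1.36 to 2.44.

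The macrophage ratios of Cxcl10 over anti-PD-L1 given above were also positive but within the fold. With added 2DG the macrophage ratio was just inside the limit, where the median of all genes was -0.08. In monocytes a ligand passed the fold in both combinations over anti-PD-L1, and it was Cxcl10. Its ratio was 0.80 (0.76 to 0.84) with added 2DG, where 4.27% of genes passed, and 0.76 (0.72 to 0.80) with added 2FF, where 4.24% passed. The Cxcl9 ratios beside these were 0.21 and -0.44, and the Cxcl16 ratios 0.45 and 0.36. Whether Cxcl10 differed from Cxcl9 beyond mouse-to-mouse spread was not tested. Adding anti-PD-L1 to 2DG went with higher Cxcl9 (1.13) and Cxcl10 (0.99) in monocytes, 2 of 3 ligands against 4.39% of all genes, while adding it to 2FF gave -0.15, 0.20 and -0.06 for Cxcl9, Cxcl10 and Cxcl16, 0 of 3 against 2.67%.

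Neutrophils had the highest background over control of the classes compared, with 39.5% of genes past the fold with 2DG, 38.1% with 2FF and 34.1% with anti-PD-L1. All 3 ligands passed the fold upward in each, with Cxcl9 at 2.21, 3.87 and 3.002, Cxcl10 at 2.00, 2.98 and 0.90, and Cxcl16 at 1.53, 2.31 and 1.59. The median gene was shifted by 0.25, 0.22 and 0.16, and relative to it the 9 ratios were 0.74 to 3.65. Control neutrophils were not above background for Cxcl9, with 14.0 CPM and a UMI in 2.35% of cells against 11.1 CPM and 3.85% in control CD8+ T cells, nor for Cxcl16, with 8.78 CPM against 10.1. Thinned to 1000 UMIs, the Cxcl9 share in the treated libraries was 3.36% to 6.16% of neutrophils against 1.43% to 2.12% of CD8+ T cells, and the Cxcl16 share 1.49% to 2.71% against 0.684% to 1.31%. Without the top 5% of cells the Cxcl16 ratio of 2DG over control was 0, since those cells held all of its UMIs in both libraries.

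Between treated libraries, neutrophil Cxcl10 was above this background, in 9.49% to 22.3% of thinned cells against 1.79% to 2.65% of CD8+ T cells, while Cxcl9 and Cxcl16 rested on few cells. Over anti-PD-L1, Cxcl10 was higher by 1.48 with added 2DG (1 of 3 ligands, background 19.7%) and by 1.79 with added 2FF. In the latter Cxcl9 was lower at -0.72, so 2 of 3 ligands passed against a background of 14.3%. Adding anti-PD-L1 to 2DG gave 0.93 for Cxcl9 (1 of 3 ligands, background 16.1%), and adding it to 2FF gave -1.58 for Cxcl9 and -1.05 for Cxcl16 (2 of 3, background 19.3%). Neutrophils had 122 to 446 Cxcl9 UMIs per library, of which the top 5% of cells held 91.7% to 100%, and 162 of the 446 with 2FF were in 1 cell. Leaving out cells with 2 or more markers of another lineage turned the Cxcl9 ratio of the 2DG combination over 2DG to -0.95 and that of the 2FF combination over anti-PD-L1 to 0.25, and moved that of the 2FF combination over 2FF to -0.42, within the fold. The Cxcl16 ratio of the 2FF combination over 2FF was also within it with the mean of the CPM of each cell (-0.38) and without the top 5% of cells (-0.30).

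**Figure D5:**
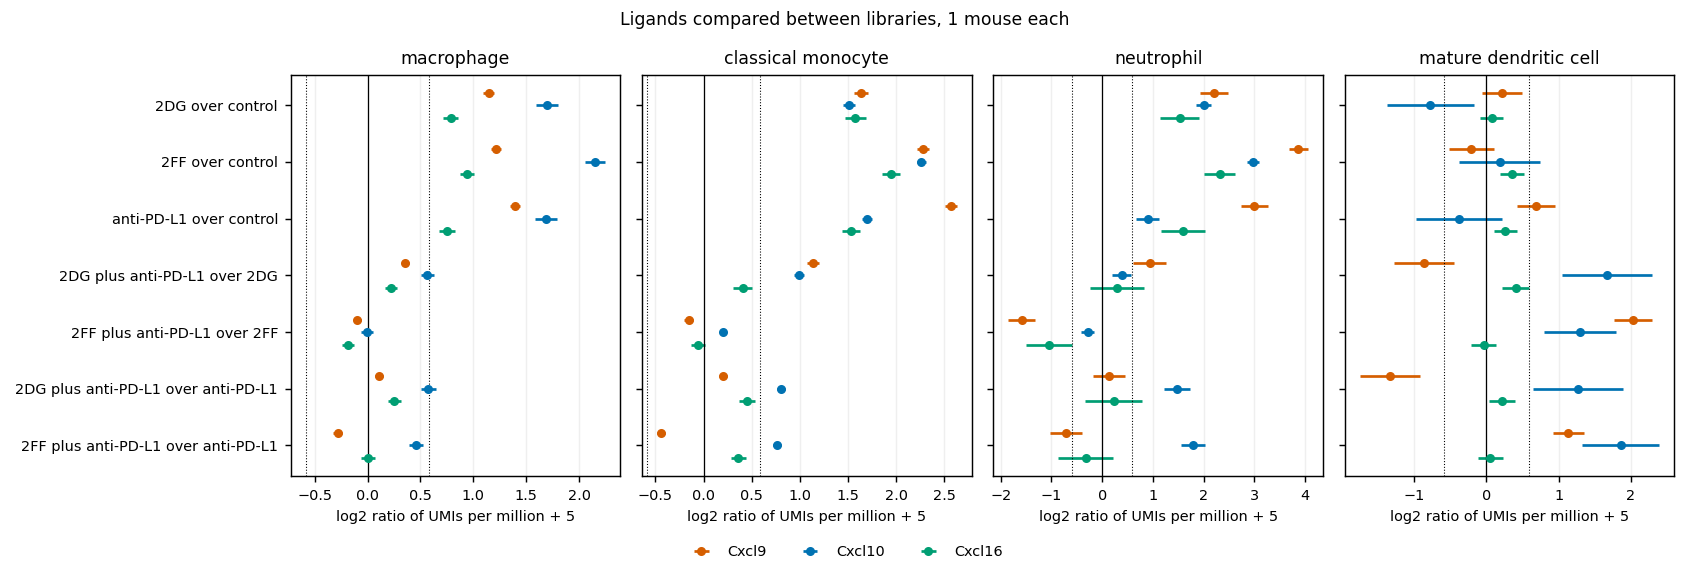
Log2 ratios of CPM + 5 of Cxcl9, Cxcl10 and Cxcl16 in macrophages, classical monocytes, neutrophils and mature dendritic cells for the 7 pairs of libraries compared, with bars for 95% counting intervals and dotted lines at 1.5-fold. Ratios over control are above 0 for each ligand in macrophages, monocytes and neutrophils. Over anti-PD-L1 alone, Cxcl10 lies above 0 with either inhibitor in each class drawn, within 1.5-fold in macrophages.

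Mature dendritic cells did not follow the macrophages. Cxcl16 passed the fold in none of the 7 comparisons there, with ratios from -0.04 to 0.40. Over control, Cxcl9 passed only with anti-PD-L1 (0.69, 1 of 3 ligands, background 17.8%), and this became 0.56 with at least 3 markers required and 0.22 without cells holding markers of another lineage. With 2FF over control 0 of 3 passed (background 21.3%). The Cxcl10 ratio with 2DG over control was -0.77 (-1.38 to -0.17), 1 of 3 ligands against 15.4% of genes, from 25 and 36 UMIs, and it was within the fold with the mean of the CPM of each cell (-0.0011) and with a pseudocount of 20 (-0.52).

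Cxcl10 in mature dendritic cells was no higher than in CD8+ T cells with each single treatment, but not so in the control. There it was 34.4 CPM, from 36 UMIs, against 16.2 CPM in CD8+ T cells, from 16 UMIs. After thinning to 1000 UMIs, the control shares were 2.07% against 0.890%. The CD8+ T cell level is an uneven yardstick, since the top 5% of cells held 87.0% to 95.8% of its UMIs in the treated libraries. The level in mature dendritic cells was 18.0 CPM with 2DG, 39.9 with 2FF and 25.4 with anti-PD-L1, each below the 36.5, 46.2 and 35.6 CPM of CD8+ T cells. It was 68.3 and 105 in the 2DG and 2FF combinations against 51.0 and 49.6. Its ratios were 1.67 when anti-PD-L1 was added to 2DG, 1.30 when it was added to 2FF, and 1.27 and 1.86 in the 2 combinations over anti-PD-L1, so each of them set 35 or 72 UMIs against a level not above background. Cxcl9 passed the fold beside it, lower in the 2DG combination (-0.86 over 2DG and -1.34 over anti-PD-L1) and higher in the 2FF combination (2.03 over 2FF and 1.13 over anti-PD-L1), so 2 of 3 ligands passed in each of these 4 comparisons, against 17.6%, 12.8%, 16.5% and 13.8% of genes. Without the top 5% of cells the ratios of -0.86 and 1.13 became -0.34 and 0.23, within the fold. Of the 385 Cxcl9 UMIs of mature dendritic cells with the 2FF combination, 136 were in 1 cell.

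The receptors moved little in CD8+ T cells, where 0 of 2 passed the fold in any of the 7 comparisons. The backgrounds were 12.3%, 15.9% and 15% of genes for 2DG, 2FF and anti-PD-L1 over control, 4.61% and 1.81% for anti-PD-L1 added to 2DG and to 2FF, and 4.06% and 2.89% for 2DG and 2FF added to anti-PD-L1. The Cxcr6 ratio over control was 0.04 (-0.13 to 0.20) with 2DG, 0.30 (0.14 to 0.46) with 2FF and 0.07 (-0.09 to 0.24) with anti-PD-L1, and over anti-PD-L1 it was 0.32 (0.27 to 0.38) with added 2DG and 0.08 (0.01 to 0.14) with added 2FF. The Cxcr3 ratio over anti-PD-L1 was -0.06 (-0.26 to 0.14) and 0.01 (-0.20 to 0.21). The Cxcr3 level was 24.3 CPM in the control, from 24 UMIs, 27.7 with 2DG, 16.2 with 2FF and 22.1 with anti-PD-L1. Of the intervals over control, the lowest limit was -0.97, with 2FF, and the highest was 0.66, with 2DG. Each interval was narrower than this span, and a change smaller than its counting error was not detectable at this depth.

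In CD4+ T cells Cxcr3 was higher over control with 2FF (0.77, 0.24 to 1.30), which was 1 of 2 receptors against a background of 16.5%, and no receptor passed with 2DG (11.7%) or anti-PD-L1 (13.6%). This ratio was 0.45 without cells carrying markers of another lineage. In the combinations over anti-PD-L1, 0 of 2 receptors passed, with backgrounds of 8.17% for 2DG and 5.7% for 2FF.

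In Tregs, Cxcr6 was higher over control with 2DG (0.73, 0.13 to 1.33), 2FF (0.76, 0.07 to 1.44) and anti-PD-L1 (0.80, 0.19 to 1.42), from 18 UMIs in the control, and Cxcr3 was higher with 2FF (0.88, 0.33 to 1.43). These were 1, 2 and 1 of 2 receptors, against 13.7%, 20.2% and 16.3% of genes. Leaving out cells with markers of another lineage lowered the Cxcr6 ratios to 0.13, 0.16 and 0.46, none past the fold. In the combinations over anti-PD-L1, 0 of 2 receptors passed, against 12.4% for 2DG and 7.95% for 2FF.

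Other genes that interferon-gamma induces were counted in the same cells. Of 21 listed genes, such as Gbp2 and Ciita, 20 were tested in macrophages, and 15, 20 and 15 of them were higher over control with 2DG, 2FF and anti-PD-L1, with median ratios of 0.96, 1.09 and 1.04. Of all genes, 3.82%, 5.69% and 4.32% were higher, with medians of -0.05, -0.08 and -0.02. Gbp2, an interferon-induced GTPase, had ratios of 1.40, 1.70 and 1.32 in macrophages, and Socs1, an inhibitor of interferon signaling, had 1.52, 1.72 and 1.32. In classical monocytes 17, 19 and 16 of the list were higher, against 11.0%, 10.1% and 11.1% of all genes. Ciita, the master regulator of MHC class II genes, had 2.61, 2.35 and 2.44, and Iigp1, a GTPase of cell-intrinsic defense, had 2.15, 2.62 and 1.90. Nos2, the inducible nitric oxide synthase, was the 1 listed gene lower in monocytes in each of these comparisons, at -1.53, -0.66 and -1.63. In the 2DG and 2FF combinations over anti-PD-L1, 2 and 2 of these genes were higher in macrophages, where 3.01% and 1.964% of all genes were, and 3 and 4 in monocytes, where 1.95% and 2.12% were, and Ciita was lower in macrophages with the 2FF combination, at -0.62. Nos2 and Ciita are given here because they were the only listed genes past the fold in the lower direction in these comparisons, a choice made after their values were seen.

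Genes of the type I interferon response were counted beside them, 13 of 14 being tested. In classical monocytes 12, 13 and 13 were higher over control with 2DG, 2FF and anti-PD-L1, against 11.0%, 10.1% and 11.1% of all genes. In the 2FF combination over anti-PD-L1, 9 of the 13 were higher in monocytes, with a median ratio of 0.78, against 2.12% of all genes, and in the 2DG combination 2 were higher, with a median of 0.46, against 1.95%. With 2FF the ratios were 1.31 for Ifit1, which binds viral RNA, 1.08 for Isg15, a ubiquitin-like modifier, 1.05 for Ifit2 and 0.99 for Rsad2, an antiviral enzyme. With 2DG, Isg15 had 0.90 and Ifit1 0.65. Macrophages had 6 genes higher with 2DG and 5 with 2FF in the same comparisons, with medians of 0.43 and 0.48, against 3.01% and 1.964% of all genes. In the receptor and kinase list for interferons, 0 of 8 genes passed in macrophages or monocytes in either combination over anti-PD-L1, where 3.81% to 6.65% of all genes passed in either direction.

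T cell genes were counted in CD8+ T cells, where the receptors themselves did not pass. Of 10 genes of tissue residency and egress, 5, 3 and 4 were lower over control with 2DG, 2FF and anti-PD-L1, against 5.90%, 6.02% and 6.44% of all genes. Il7r, the receptor for interleukin-7, had ratios of -1.46, -0.70 and -0.64. In the list of T cell state genes, Tcf7 was lower at -0.69, -1.09 and -0.998 and Ifng, the interferon-gamma gene, was higher at 1.15, 1.57 and 1.38. Of all genes, 6.41%, 9.86% and 8.58% were higher. Genes of this list were named by the size of their ratios, and how many of it passed is not given here. Of the other chemokine receptors, 5 of 9 were tested over control, and Cxcr4, the receptor of CXCL12, had -0.89, -1.06 and -1.17 while Ccr2 had -0.80, -0.97 and -0.99. In the combinations over anti-PD-L1, Cxcr4 was the only tested receptor of this list past the fold, with 1.03 with 2DG and 0.85 with 2FF. Il12rb2, a subunit of the interleukin-12 receptor from the T cell state list, had 1.25 and 0.79. Of all genes, 4.06% with 2DG and 2.89% with 2FF passed in either direction.

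The genes whose levels over cell classes were most like those of a member were found by Pearson's r over 83 sums of a library and class, on log2(CPM + 5), among 12638 genes with at least 500 UMIs. The sums share libraries and depth, so these values are descriptions. For Cxcl9 they were Slamf8 (0.905), Aif1 (0.904), Gatm (0.895), Cxcl16 (0.885) and Cttnbp2nl (0.877). For Cxcl10 they were Zbp1 (0.873), Oas1a (0.869), Pnp (0.863), Dhx58 (0.861) and Ifit2 (0.859), of which Zbp1, Oas1a, Dhx58 and Ifit2 are known interferon-induced genes. Cxcl16 was closest to Cttnbp2nl (0.944), Rnf180 (0.922), Hsd3b7 (0.920), Anpep (0.910) and Htr7 (0.907). Cxcr3 was closest to Ssbp3 (0.918), Zdhhc2 (0.915), Ctla4 (0.910), Mllt3 (0.893) and Hacd3 (0.892), and Ctla4 encodes an inhibitory receptor that Tregs carry. Cxcr6 was closest to Gm47015 (0.967), Pde11a (0.957), Rgs16 (0.955), Themis (0.955) and Cd3g (0.953), the last being a subunit of the T cell receptor complex and one of the markers that assigned T cells.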

How the data were processed

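Single-cell RNA sequencing libraries of droplets (10x), 6 in all, 1 mouse each, were grouped by the treatment in the labels. The counts deposited by the authors are whole UMIs for each gene in each cell, without normalization, made with Cell Ranger, which aligns with STAR, on mm10 (GRCm38). The file header names Cell Ranger 7.0.0 and the submitters' processing notes 3.1.0. The filters of the study are not applied in the deposited counts, so cells with under 250 genes or over 5% mitochondrial UMIs were left out here. No doublet caller was run, and cells with equal markers of 2 lineages stayed unassigned. Alternatives that left out cells with 2 or more markers of another lineage, or that changed filters, pseudocount or minimum counts, are given at the end.

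UMIs were summed per library and class and divided by the class total (CPM). Levels have exact Poisson and shares exact Clopper-Pearson 95% intervals, which cover counting error only. Classes were compared within libraries by the exact sign-flip permutation test with Benjamini-Hochberg adjustment. Treatments have 1 library each, so ratios between 2 libraries have no test. An additive fit of inhibitor and anti-PD-L1 over the 6 libraries, added after the data were seen, used edgeR 4.0.16 in R 4.3.3 (TMM, quasi-likelihood test) on genes with at least 50 UMIs in a class. The members and gene lists were chosen with earlier results of these data known. Named list genes were at most 4 per list past 1.5-fold, the largest first. Of the lists, 2 genes, Cxcl11 and Mx1, were not analysed here, and Cxcl16 has no promoter window here. Scripts used Python 3.11.15, NumPy 2.4.6, pandas 2.3.3, SciPy 1.17.1 and Matplotlib 3.10.9, and were tested on simulated data. Some genes are not reported here by name.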

Additional observations from a re-analysis of the deposited data

Results flagged for a closer look

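Some log2 ratios of CPM + 5 went one way in one comparison and the other way in a like comparison, and these differences were not tested. In neutrophils, the Cxcl9 ratio of anti-PD-L1 was 3.002 over control, 0.93 when added to 2DG and -1.58 when added to 2FF. Without cells holding markers of another lineage the last was -0.42, within the fold, and 1 cell held 162 of the 446 UMIs with 2FF. The Cxcl16 ratio of anti-PD-L1 in neutrophils was 1.59 over control and -1.05 when added to 2FF, and without the top 5% of cells the latter was -0.30. In mature dendritic cells, the Cxcl9 ratio of anti-PD-L1 was 0.69 over control, -0.86 when added to 2DG and 2.03 when added to 2FF. The first was 0.22 without cells holding markers of another lineage and the second -0.34 without the top 5% of cells, both within the fold. Over anti-PD-L1 alone, the Cxcl9 ratio of these dendritic cells was -1.34 with 2DG and 1.13 with 2FF, and the second was 0.23 without the top 5% of cells, 1 of which held 136 UMIs.

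Signal was also found in classes too small to enter the comparisons, with all libraries summed. In 65 cells with epithelial markers, the tumor cell class, Cxcl9 had 124 UMIs (128 CPM, exact Poisson 95% interval 107 to 153), Cxcl10 had 84 (86.9 CPM) and Cxcl16 had 46 (47.6 CPM), where 3 UMIs would be 3.102 CPM. Of the Cxcl9 UMIs, 53 were in 3 cells with 2DG and 48 in 4 cells with the 2DG combination. In 165 gamma-delta T cells, Cxcr3 had 28 UMIs (31.3 CPM) and Cxcr6 had 131 (146 CPM). In 97 plasma cells, Cxcr3 had 110 UMIs (64.1 CPM), 74 of them with 2FF, and Cxcr6 had 6 (3.50 CPM), where 3 UMIs would be 1.75 CPM. The part of free RNA and of doublets in these values was not tested.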

How the results depend on the processing

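Of 69 log2 ratios past 1.5-fold, 51 stayed past it in the same direction under each alternative on the same scale (other gates, filters, pseudocounts, scalings and the loss of the richest cells), and 585 of 621 such values did. The sign turned for 2 ratios, both of Cxcl9 in neutrophils, and the causes were not tested. The ratio of the 2DG combination over 2DG, 0.93 in the main analysis, was -0.95 without cells holding markers of another lineage, -0.032 with the mean of the CPM of each cell and -0.12 without the top 5% of cells, and that of the 2FF combination over anti-PD-L1, -0.72, was 0.25 without cells holding markers of another lineage. For Cxcl9 in macrophages over anti-PD-L1, the ratio of the 2DG combination (0.11) was 0.19 centred on the median gene, 0.28 from shares of cells thinned to 1000 UMIs and 0.32 without the top 5% of cells, and that of the 2FF combination (-0.28) was -0.21, 0.0056 and -0.23, with -0.32 without cells holding markers of another lineage and -0.043 with the mean of the CPM of each cell. For Cxcl10 in classical monocytes the ratio of the 2DG combination (0.80) was 0.87, 0.72 and 1.14 and that of the 2FF combination (0.76) was 0.86, 0.54 and 0.99, with 0.70 under the stricter gate. Cxcr6 in CD8+ T cells with the 2DG combination (0.32) was 0.23 from thinned shares. Lower minimum counts added genes: past 1.5-fold in the 2DG and 2FF combinations over anti-PD-L1 were 748 and 664 genes in mature dendritic cells, 1527 and 1385 with a minimum of 20 UMIs and 3502 and 3124 with none, and in Tregs 890 and 596, 1375 and 974, and 1887 and 1416. With a minimum of 10 cells per state, chosen after seeing the data, the CD8+ T cell differences of Cxcr3 were -1.73, -0.94 and 0.79 and of Cxcr6 1.41, 0.21 and -1.20 (Havcr2+ minus Tcf7+, Havcr2+ minus neither and Tcf7+ minus neither), each with an exact permutation p of 0.03125 over 6 libraries. The share of cells with Cxcr3 in Tregs minus CD8+ T cells, 3.79 points when thinned to 1000 UMIs, was 6.91 at 2000 UMIs and 17.2 not thinned, and that with Cxcr6 in CD8+ T cells minus Tregs, 25.8 points, was 40.2 and 61.4. Leaving out each library in turn kept the direction of the leading class of each member, with differences of 0.43 to 0.55 for Cxcl9, 0.67 to 0.76 for Cxcl10, 0.34 to 0.48 for Cxcl16, 0.52 to 0.66 for Cxcr3 and 0.10 to 0.15 for Cxcr6, where 5 libraries allow no exact p under 0.0625. Among the states, the ranges were -1.71 to -1.55, -0.98 to -0.88 and 0.60 to 0.83 for Cxcr3 and 1.34 to 1.502, 0.12 to 0.22 and -1.29 to -1.15 for Cxcr6. The labels carry no replicate numbers, and the treatments that differ only by anti-PD-L1 enter as 3 pairs in the additive fit of the report.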

Other observations

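Other genes listed beside these axes, not all of them part of the axes, gave values of their own. Pf4, which encodes the chemokine CXCL4, was lower than in the control in macrophages of each single treatment, with log2 ratios of -1.79 with 2DG, -2.15 with 2FF and -1.44 with anti-PD-L1, the opposite direction to the 3 ligands. Its macrophage level was 786 CPM in the control, the highest of 6 libraries. Ppbp, the gene of another platelet-type chemokine, reached 55.9 CPM in macrophages of 1 library and had a median of 3.62. Dpp4, whose protease inactivates CXCL9 and CXCL10, was highest in mature dendritic cells, at a median of 363 CPM over 6 libraries (252 to 396), and was 102 to 141 in CD8+ T cells and 3.93 to 9.74 in macrophages. In classical monocytes Dpp4 was higher than in the control by 2.14, 2.17 and 2.04 with 2DG, 2FF and anti-PD-L1.

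Adam10 and Adam17, the genes of sheddases that can release CXCL16 from the cell surface, were present in macrophages at 171 to 220 and 141 to 169 CPM. Adam10 was 70.3 to 108 CPM in mature dendritic cells, the class highest in Cxcl16. Ackr3, an atypical scavenging receptor, was 8.23 to 24.1 CPM in macrophages and 4.76 to 13.8 in B cells, and Ackr1 was at most 1.69 CPM in any class compared. Cd74, the invariant chain of MHC class II, was higher over control in macrophages by 0.80, 0.90 and 0.77 and in classical monocytes by 2.02, 2.14 and 1.76.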
